A study of Mus musculus with 38 samples.

Results

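The genes described here are 8 transcription factors and cofactors of the mouse pluripotency network: Pou5f1 (also called Oct4), Nanog, Sox2, Zfp42 (Rex1), Tfcp2l1, Nr0b1 (Dax1), Prdm14 and Tbx3. They were taken by name, with earlier results of these data known, and all 8 were found among the 35976 genes of one deposited expression table (17 libraries), the 37108 genes of the other (8 libraries) and the 20695 genes of the single-cell table. The study asked how BMP4, a ligand of the TGF-beta superfamily, acts on the conversion of mouse embryonic fibroblasts (MEFs) to pluripotency by retroviruses carrying Jdp2, Glis1, Esrrb and Sall4 (JGES). The MEFs came from E13.5 embryos of OG2 (an Oct4-GFP reporter line) and 129S4/SvJaeJ parents, of either sex. All JGES cultures were kept in iCD3, a medium that holds Vitamin C, mLIF, bFGF, CHIR99021, SGC0946 and Y27632 among others, and the BMP4+ cultures also received 10 ng/ml BMP4 for up to 7 days. Bulk RNA of JGES cultures was taken at day 0 and, with and without BMP4, at days 1, 3, 5 and 7. Day 7 cultures with other factor sets were measured with and without BMP4 as well: JGE (no Sall4), JGEO (Oct4 in place of Sall4) and JGESO (all 5). MEFs infected with SALL4WT alone, or with SALL4delN12, a form without its first 12 amino acids, were kept in iCD3 with no BMP4 and sampled at days 1, 5, 9 and 11. Single cells came from JGES day 7 with and without BMP4, and the SALL4-alone cultures also gave ATAC-seq and CUT&Tag peak lists. Infected cultures are mixtures of cells at different stages. Each condition had 1 library or, for CUT&Tag, 1 peak list from merged replicates. No difference between conditions therefore has a replicate check, and no p-value is given anywhere.

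Pou5f1, Sox2 and Nanog form the centre of the network that holds embryonic stem cells in the pluripotent state, and each of them binds the regulatory DNA of the others. Tfcp2l1 and Tbx3 act downstream of LIF and the other signals of the naive state, Nr0b1 and Prdm14 are cofactors and repressors that keep naive cells from differentiating, and Zfp42 is a marker of the naive state. Tbx3 and Sox2 also have roles outside pluripotent cells: Tbx3 in mesenchyme, limb, heart and extraembryonic endoderm, Sox2 in neural and epithelial progenitors.

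On mm10 with the GENCODE vM21 annotation, Pou5f1 (ENSMUSG00000024406) lies at chr17:35506018-35510772 on the plus strand, Nanog (ENSMUSG00000012396) at chr6:122707489-122714633 on the plus strand and Sox2 (ENSMUSG00000074637) at chr3:34650405-34652461 on the plus strand. Zfp42 (ENSMUSG00000051176) lies at chr8:43295063-43306980 on the minus strand, Tfcp2l1 (ENSMUSG00000026380) at chr1:118627945-118685168 on the plus strand and Nr0b1 (ENSMUSG00000025056) at chrX:86191764-86195947 on the plus strand. Prdm14 (ENSMUSG00000042414) lies at chr1:13113457-13127163 on the minus strand and Tbx3 (ENSMUSG00000018604) at chr5:119670669-119684724 on the plus strand. Sox2 sits inside the longer gene Sox2ot, and whether reads of Sox2ot add to the deposited Sox2 values was not tested.

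The 250 bases before the transcription start of 6 of the 8 genes are printed to set the promoters of the factors side by side; they come from RefSeq on GRCm38.p6 (the sequence of mm10), 5′ to 3′ on the strand of the gene. Prdm14 and Tbx3 are named only. Each window ends at the base before the RefSeq start, which is the GENCODE start above for Nanog and Tfcp2l1, lies upstream of it for Sox2 and Zfp42 and lies inside the GENCODE gene for Pou5f1 and Nr0b1. Capitals mark the octamer ATGCAAA, recognised by POU factors, or the SOX motif ACAATG, on either strand.
Pou5f1, chr17:35505782-35506031, plus strand: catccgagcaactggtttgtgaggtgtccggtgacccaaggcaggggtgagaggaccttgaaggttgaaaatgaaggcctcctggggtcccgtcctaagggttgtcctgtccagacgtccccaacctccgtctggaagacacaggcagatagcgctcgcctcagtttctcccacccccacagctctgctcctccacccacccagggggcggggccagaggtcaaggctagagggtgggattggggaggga
Nanog, chr6:122707239-122707488, plus strand: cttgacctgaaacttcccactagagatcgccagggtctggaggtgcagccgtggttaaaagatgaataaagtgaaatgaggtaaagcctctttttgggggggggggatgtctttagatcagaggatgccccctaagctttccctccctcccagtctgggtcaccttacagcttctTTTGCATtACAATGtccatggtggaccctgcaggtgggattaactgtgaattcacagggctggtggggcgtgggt
Sox2, chr3:34649745-34649994, plus strand: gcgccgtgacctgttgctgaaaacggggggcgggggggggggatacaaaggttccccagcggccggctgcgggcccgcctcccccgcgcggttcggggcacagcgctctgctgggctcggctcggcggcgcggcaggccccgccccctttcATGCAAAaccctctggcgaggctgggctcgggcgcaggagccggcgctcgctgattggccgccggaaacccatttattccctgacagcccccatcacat
Zfp42, chr8:43307010-43307259, minus strand: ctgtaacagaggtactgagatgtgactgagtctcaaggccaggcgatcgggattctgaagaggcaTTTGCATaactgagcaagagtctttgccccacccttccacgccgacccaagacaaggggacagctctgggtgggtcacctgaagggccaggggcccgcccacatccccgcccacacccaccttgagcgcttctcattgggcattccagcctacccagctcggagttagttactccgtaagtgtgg
Tfcp2l1, chr1:118627695-118627944, plus strand: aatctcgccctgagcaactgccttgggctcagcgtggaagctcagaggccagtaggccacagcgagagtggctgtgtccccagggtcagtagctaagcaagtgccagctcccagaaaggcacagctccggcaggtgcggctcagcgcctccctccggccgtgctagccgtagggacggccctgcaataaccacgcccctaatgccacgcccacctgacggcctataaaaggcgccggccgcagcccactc
Nr0b1, chrX:86191525-86191774, plus strand: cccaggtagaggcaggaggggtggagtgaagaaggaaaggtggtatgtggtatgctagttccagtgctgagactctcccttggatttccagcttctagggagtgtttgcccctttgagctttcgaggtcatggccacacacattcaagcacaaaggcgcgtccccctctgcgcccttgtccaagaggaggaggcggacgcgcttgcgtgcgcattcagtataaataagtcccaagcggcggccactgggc

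An octamer stood in 3 of these 6 windows, and 4.06% of 27025 RefSeq promoter windows of the same length held it. In Nanog it was read on the minus strand at -75 to -69 from the RefSeq start, 1 base before a SOX motif at -67 to -62 on the plus strand. Counted from the RefSeq start as well, the octamer of Sox2 stood at -99 to -93 on the plus strand. That of Zfp42, a minus-strand gene, stood at -185 to -179 on the strand opposite to the gene. The SOX motif stood in 10.99% of all windows. The ESRRB motif AAGGTCA (4.05% of windows), the AP-1 motif TGACTCA (4.43%) and AATATT, an AT-rich motif bound by SALL4 (6.48%), were searched on both strands too and were in none of the 6. The windows of Pou5f1, Tfcp2l1 and Nr0b1 held none of the 5 motifs. These matches are letters in a window and were not tested as binding sites.

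RNA levels are FPKM, fragments scaled for transcript length and for library size. They do not correct for a wide shift of other genes between libraries, so differences were also computed with both libraries scaled to one median ratio. Differences are given as log2(FPKM + 1), a scale that understates the change of genes at low level, and a difference of at least 1 (2-fold) in either direction is counted. The background is the share of all genes, with at least 1 FPKM in either library, that pass the same limit. The low FPKM values were whole multiples of the value of 1 read, which put the depth of the 9 JGES libraries at about 2620000 to 3170000 reads, against 14950000 to 19510000 for the 8 SALL4-alone libraries and 14300000 to 19820000 for the 6 JGE, JGEO and JGESO libraries. The JGES libraries therefore have the coarsest low values: at the gene length of Prdm14, 3 reads were worth 0.403 to 0.414 FPKM in the BMP4+ libraries. In bulk libraries, fewer cells that express a gene and less RNA of it per cell cannot be told apart.

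Which of the 8 factors came on first was read from the 5 JGES libraries without BMP4, taking a factor as active from the first day at which it reached 1 FPKM and stayed there. Sox2 and Tbx3 were above that level already at day 0, Pou5f1, Nanog and Nr0b1 reached it at day 1, Zfp42 and Tfcp2l1 at day 3, and Prdm14 at day 5. With 1 library a day, the order among factors that reached the level on the same day is not resolved. In the paper, MEFs are infected before the change to iCD3, and the labels do not say whether day 0 cultures were already infected. Day 0 is therefore not taken as untreated MEFs.

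Pou5f1, the POU-domain factor without which pluripotent cells are lost, measured 0.931 FPKM at day 0 (about 4 reads) and 9.004, 50.1, 169.5 and 229.7 FPKM at days 1, 3, 5 and 7. Nanog, the homeodomain factor that stabilises the naive state, was at 0 at day 0 and rose to 2.22, 13.1, 40.8 and 60.5 FPKM over the later days. Both stood near a common share of their day 7 level: Pou5f1 at 3.92% at day 1 and 21.8% at day 3, Nanog at 3.66% and 21.7%. Each day was higher than the day before for both genes. Sox2, the HMG-box partner of Pou5f1, measured 5.85 FPKM at day 0 and 59.5, 117, 113 and 165 FPKM at days 1, 3, 5 and 7. It had 36.1% of its day 7 level at day 1, and days 3 and 5 differed little from one another. At day 1 Sox2 therefore stood above Pou5f1 and Nanog in FPKM, while at days 5 and 7 Pou5f1 stood above Sox2.

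Among the naive-state genes, Nr0b1, an orphan nuclear receptor that acts as a corepressor, went from 0 at day 0 to 1.45, 9.23, 16.8 and 17.8 FPKM at days 1, 3, 5 and 7. It was at 51.8% of its day 7 level by day 3 and at 94.4% by day 5, earlier than Nanog at 67.4%. Tfcp2l1, a CP2-family factor downstream of LIF, measured 0.217, 0.524, 6.36, 13.7 and 22.0 FPKM over the 5 days, with the rise past 1 FPKM between days 1 and 3. Zfp42, the zinc-finger gene known as a marker of naive cells, was at 0 at days 0 and 1 and then at 1.47, 23.1 and 42.0 FPKM. At day 3 Zfp42 had 3.49% of its day 7 level where Tfcp2l1 had 28.9%, so the pair that passed 1 FPKM on the same day were at different stages of their rise. Prdm14, a PR-domain repressor of differentiation genes, had 0 FPKM on days 0 and 1, 0.400 FPKM on day 3 (about 3 reads), 5.58 FPKM on day 5 and 4.11 FPKM on day 7. It was the last to pass 1 FPKM, had the lowest day 7 level of the 8, and was the one factor whose highest value came before day 7.

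Tbx3, a T-box factor that mesenchymal cells also use, measured 5.24 FPKM at day 0 and 15.9, 15.0, 14.7 and 23.9 FPKM at days 1, 3, 5 and 7. It reached 66.8% of its day 7 level at day 1 and stayed near it until day 5, a course unlike that of the other 7. Against day 0, 5 of the 8 factors were at least 2-fold higher at day 1 where 11.8% of all genes were, 7 at day 3 (16.4% of all genes), 8 at day 5 (20.2%) and 8 at day 7 (22.2%). The 4 comparisons share the day 0 library.

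**Figure D1:**
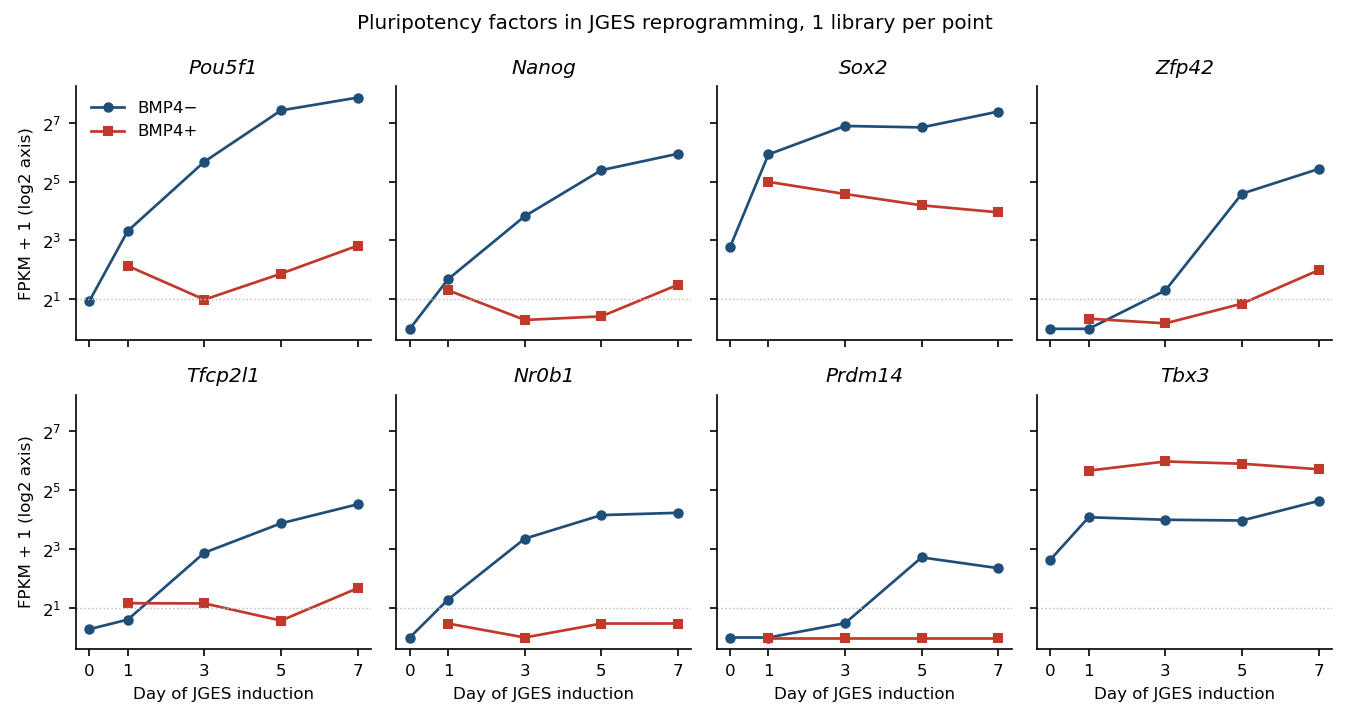
FPKM + 1 of the 8 factors (vertical axis, log2 scale) against day of JGES culture (horizontal axis) without and with BMP4, 1 library a point. The dotted line marks 1 FPKM. Without BMP4 all 8 factors ended above their day 0 value, and with BMP4 Nr0b1 and Prdm14 stayed under 1 FPKM while Tbx3 stood at 49.7 to 61.9 FPKM.

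With BMP4 in the medium, 7 of the 8 factors were lower and 1, Tbx3, was higher by day 5. Pou5f1 measured 3.39, 0.989, 2.66 and 6.08 FPKM at days 1, 3, 5 and 7 with BMP4, the differences from the BMP4- libraries being -1.19, -4.68, -5.54 and -5.03 on the log2(FPKM + 1) scale. At day 3 it rested on about 4 reads, as many as at day 0, and it passed 1 FPKM to stay at day 5 rather than day 1. Nanog measured 1.48, 0.232, 0.341 and 1.82 FPKM with BMP4, which are about 9, 1, 2 and 12 reads, with differences of -0.38, -3.52, -4.96 and -4.45. At day 1 the Nanog difference was thus under 2-fold, and Pou5f1 was the one factor at least 2-fold lower.

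Sox2 kept a measurable level with BMP4 throughout: 30.8, 22.9, 17.3 and 14.5 FPKM at days 1, 3, 5 and 7, with differences of -0.93, -2.31, -2.64 and -3.42. The BMP4+ value was highest at day 1 and lower at each later day, while the BMP4- value was higher at day 3 than at day 1 and at day 7 than at day 5. All 4 BMP4+ values were above the 5.85 FPKM of day 0. Nr0b1 gave about 2, 0, 2 and 2 reads at days 1, 3, 5 and 7 with BMP4 (0.389, 0, 0.389 and 0.390 FPKM) and did not reach 1 FPKM. Its differences were -0.82, -3.36, -3.68 and -3.76. No read step of Prdm14 was present in any BMP4+ library, where 3 reads would have been worth about 0.4 FPKM. The Prdm14 differences were 0, -0.49, -2.72 and -2.35, and the day 1 value is 0 because both libraries listed the gene at 0.

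Zfp42 and Tfcp2l1 were above 1 FPKM at day 7 with BMP4, Zfp42 for the first time in these cultures. Zfp42 measured 0.270, 0.138, 0.808 and 2.97 FPKM, with differences of 0.34, -1.12, -3.73 and -3.44, where the first rests on about 1 read. Tfcp2l1 measured 1.24, 1.23, 0.489 and 2.19 FPKM, with differences of 0.56, -1.72, -3.30 and -2.85. Tfcp2l1 was therefore above its BMP4- value at day 1 and below it from day 3, by less than 2-fold at day 1. Tbx3 measured 49.7, 61.9, 58.7 and 51.4 FPKM with BMP4, higher than without it by 1.58, 1.98, 1.93 and 1.08. Every BMP4+ value of Tbx3 exceeded every BMP4- value, and the gap was narrowest at day 7, when the BMP4- value was at its highest.

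Counted at 2-fold, 1 of the 8 factors was lower with BMP4 at day 1 where 5.72% of all genes were, 6 at day 3 (8.99% of all genes), 7 at day 5 (13.2%) and 7 at day 7 (13.8%). The 1 factor that was higher at each day was Tbx3, beside 3.75%, 6.81%, 8.78% and 10.3% of all genes at days 1, 3, 5 and 7. The median difference of the 8 factors was -0.19, -2.02, -3.49 and -3.43 at these days, beside medians over all genes of -0.02, -0.09, -0.18 and -0.14. Between day 0 and day 7 with BMP4, 6 factors were at least 2-fold higher, beside 17.5% of all genes: Tbx3 by 3.07, Zfp42 by 1.99, Pou5f1 by 1.87, Nanog by 1.498, Tfcp2l1 by 1.39 and Sox2 by 1.18. BMP4+ cultures thus held low levels of most of these genes at day 7, well below those of the BMP4- culture.

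**Figure D2:**
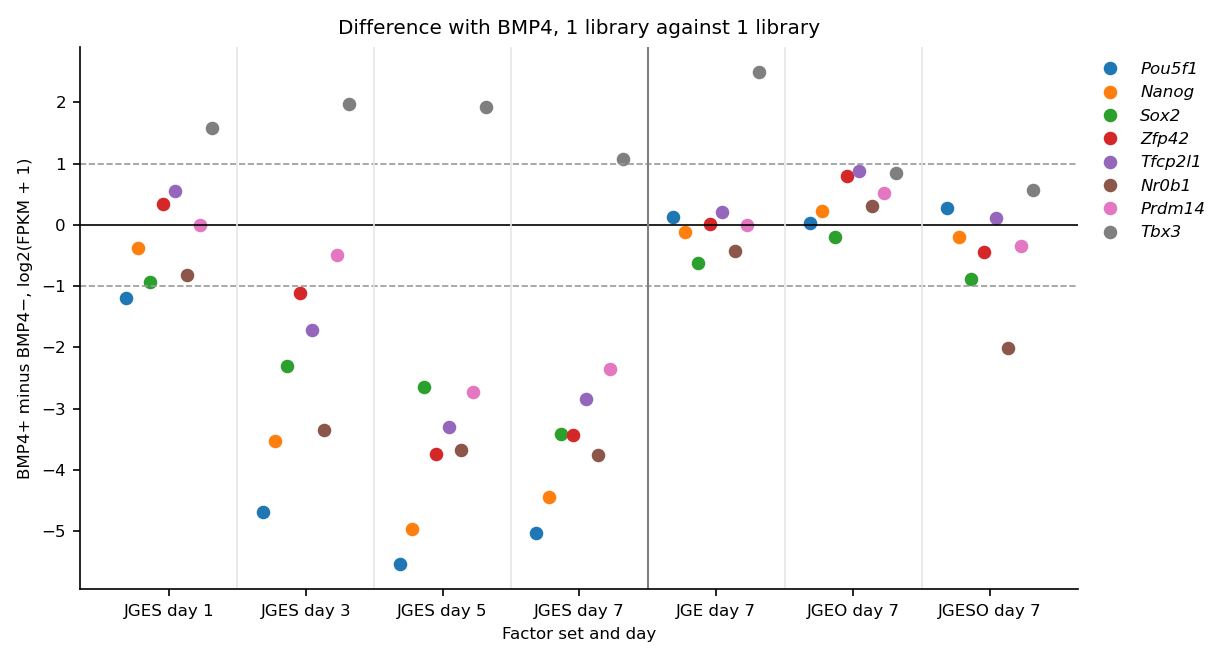
Difference with BMP4 on the log2(FPKM + 1) scale for each factor, by day in JGES and at day 7 in JGE, JGEO and JGESO, 1 library on each side, with dashed lines at 2-fold. In JGES 7 factors lie below 0 at days 3 to 7 and Tbx3 lies above 0 at every day, and in JGEO 7 of the 8 factors lie above 0 by less than 1, Pou5f1 by 0.03, which is -0.0038 with the libraries scaled.

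Other genes of the network were followed in fixed lists, chosen with earlier results of these data known. Of 19 pluripotency-network genes (Klf2, Klf4, Klf5, Dppa2, Dppa3, Dppa4, Dppa5a, Tdgf1, Utf1, Fgf4, Tdh, Gdf3, Tcl1, Lin28a, Dnmt3l, Fbxo15, Nr5a2, Mycn and L1td1), 3, 8, 16 and 16 were at least 2-fold lower with BMP4 at days 1, 3, 5 and 7, where 5.72%, 8.99%, 13.2% and 13.8% of all genes were, and 0 were higher. Their median difference at the 4 days was 0, -0.82, -2.69 and -3.51. Utf1 (93.9 FPKM without and 1.21 with BMP4 at day 7, a difference of -5.42) and Dppa5a (527 and 19.2 FPKM, -4.71) had the largest falls. Lin28a, an RNA-binding protein, at 20.3 and 27.05 FPKM (0.40), and Mycn, a Myc-family factor, at 52.4 and 35.1 FPKM (-0.56), had the smallest differences. None of 5 LIF-pathway genes (Lifr, Il6st, Jak1, Stat3 and Socs3) passed 2-fold in either direction at any of the 4 days, where 13.8% of all genes were lower and 10.3% higher at day 7, so 0 of 5 is not read as a difference from other genes. Of 6 genes of the primed state (Fgf5, Otx2, Pou3f1, Zic2, Sfrp2 and Dnmt3b), 2 were lower at day 3 (8.99% of all genes), 2 at day 5 (13.2%) and 3 at day 7 (13.8%), and 1 was higher at day 1 (3.75%) and at day 3 (6.81%). The 8 factors and the 19 network genes therefore had medians of -3.43 and -3.51 by day 7.

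The genes whose course over the 17 libraries was most like that of each factor were taken by Pearson's r of log2(FPKM + 1), out of 12350 genes with at least 5 FPKM in a library. These r values are descriptions, since libraries of 1 time course share their cells' history and the 9 JGES libraries are far shallower than the other 8. For Pou5f1 the 2 nearest were Nanog (0.973) and Nr0b1 (0.969). For Nanog they were Nr0b1 (0.986), Utf1 (0.981) and Pou5f1 (0.973), and for Nr0b1 they were Nanog (0.986), Lbx1 (0.978) and Gbx2 (0.978). Of the other 7 factors, Nanog and Nr0b1 were thus the nearest to Pou5f1, and Nanog was the nearest of all genes to Nr0b1, as Nr0b1 was to Nanog. Zfp42 was nearest to Fbxo15 (0.982), Rex2 (0.978) and Triml2 (0.978), and Prdm14 to Mep1b (0.991), Platr3 (0.990) and Gm26564 (0.990). Tfcp2l1 was nearest to Pipox (0.955), Gdf3 (0.939) and Nup210 (0.939). No other factor was among the nearest genes of Sox2: its 3 nearest were Greb1l (0.991), Scaf4 (0.977) and Aqr (0.976), of which Scaf4 and Aqr are general RNA-processing genes. Tbx3 was nearest to Dusp9 (0.906), Bspry (0.868) and AW549542 (0.862), and its r with the other 7 factors ran from -0.08 with Prdm14 to 0.20 with Tfcp2l1.

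Whether the delivered factors changed the response was read from 8 day 7 libraries quantified together. Pou5f1 is delivered by virus in JGEO and JGESO, so its level there is that of the delivered and the endogenous gene together. The 2 JGES day 7 libraries are in both tables, and the factors' values in this table were 0.975 to 0.978 times those in the other. They hold far fewer reads than the JGE, JGEO and JGESO libraries, so a low value in JGES is the less precise.

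Without Sall4 and Oct4, the JGE cultures showed little of most factors. Nanog was at 0.082 FPKM without and 0 with BMP4, Zfp42 at 0.049 and 0.054, Prdm14 at 0 in both, and Pou5f1 at 0 and 0.097. Nr0b1 at 3.82 and 2.57 FPKM, Sox2 at 13.9 and 8.65, and Tbx3 at 6.57 and 41.8 were above 1 FPKM with and without BMP4. Tfcp2l1 was at 0.379 and 0.603 FPKM. Tbx3 was the one factor past 2-fold with BMP4 in JGE, higher by 2.50, beside 4.28% of all genes higher. That change is larger than the 1.08 of JGES at day 7, and its JGE level with BMP4 was close to the JGES level.

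JGES against JGE, both without BMP4, gave at least 2-fold higher values for 8 of 8 factors, beside 20.1% of all genes. Nanog stood at 59.0 FPKM in JGES, Zfp42 at 40.9, Sox2 at 161, Tfcp2l1 at 21.4, Nr0b1 at 17.4, Prdm14 at 4.01, Tbx3 at 23.3 and Pou5f1 at 224 in this quantification. JGEO against JGE, without BMP4, gave higher values for 7 of 8, beside 10.2% of all genes, Tbx3 being the exception at 0.74. These comparisons share the JGE library.

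JGEO cultures expressed all 8 factors and, with BMP4, none of them passed 2-fold in either direction, beside 2.26% of all genes higher. The lower direction is not set beside a share of all genes here, so its count is not read as a difference from other genes. Zfp42 measured 6.56 FPKM without and 12.1 with BMP4 (0.79), Tfcp2l1 18.3 and 34.5 (0.88), and Tbx3 11.6 and 21.6 (0.84). Nanog measured 19.6 and 23.1 FPKM (0.23), Nr0b1 28.7 and 35.7 (0.31), and Prdm14 1.61 and 2.74 (0.52). The BMP4+ value was the higher of the pair in all 6, where in JGES 5 of these 6 genes were lower with BMP4 and Tbx3 was higher. Sox2 measured 102 and 89.3 FPKM (-0.19) and Pou5f1, delivered and endogenous together, 1569.9 and 1599 (0.03, or -0.0038 once both libraries are scaled to one median ratio).

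JGESO cultures, with both Sall4 and Oct4, had 1 factor past 2-fold: Nr0b1, at 9.32 FPKM without and 1.55 with BMP4, lower by 2.01 on the log2 scale beside 3.52% of all genes lower. Sox2 came next at 105 and 56.4 FPKM (-0.88), and Tbx3 at 37.5 and 55.8 FPKM (0.56). Nanog was at 11.5 and 9.87 FPKM (-0.21), Zfp42 at 3.63 and 2.42 (-0.44), and Prdm14 at 1.01 and 0.578 (-0.35). Tfcp2l1 at 2.94 and 3.28 FPKM (0.12) and Pou5f1 at 369.6 and 449 FPKM (0.28) were slightly higher with BMP4. The differences in JGESO were smaller in size than those of JGES for all 8 factors. Without BMP4, 4 factors were at least 2-fold lower in JGESO than in JGES: Zfp42 (-3.18), Tfcp2l1 (-2.51), Nanog (-2.26) and Prdm14 (-1.31). Nr0b1 (-0.83) and Sox2 (-0.61) were lower by less than 2-fold, and Pou5f1 (0.72) and Tbx3 (0.66) were higher by less than 2-fold. The share of all genes that far below was 32.7%, so 4 of 8 stands near a wide shift between these libraries of unequal depth, and over all genes the median difference was -0.21. The median ratio used for scaling lay the other way (0.07 in log2). With scaling, the 4 falls ran from -1.39 for Prdm14 to -3.25 for Zfp42.

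In MEFs given SALL4 alone, 4 of the 8 factors stayed under 1 FPKM over 11 days. Nanog lay at 0 to 0.239 FPKM in all 8 libraries, Zfp42 at 0 to 0.210, Nr0b1 at 0 to 0.063 and Prdm14 at 0 to 0.089. These values rest on at most 10 reads in any library, although the libraries are deeper than the JGES ones. Sox2 measured 0.521, 1.25, 1.43 and 1.73 FPKM at days 1, 5, 9 and 11 with SALL4WT and 0.046, 0.133, 0.083 and 0.183 FPKM with SALL4delN12. Every SALL4WT value of Sox2 was above every SALL4delN12 value, the differences (delN12 minus WT) being -0.54, -0.99, -1.16 and -1.21. Tbx3 showed the opposite order: 6.08, 14.0, 10.9 and 10.0 FPKM with SALL4WT and 11.6, 34.6, 39.9 and 35.5 FPKM with SALL4delN12, with differences of 0.83, 1.25, 1.78 and 1.73.

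Tfcp2l1 measured 0.159, 0.122, 0.306 and 0.483 FPKM with SALL4WT and 0.255, 3.23, 0.855 and 1.32 FPKM with SALL4delN12, with differences of 0.11, 1.91, 0.51 and 0.64. The day 5 value of SALL4delN12 stands apart from its neighbours in time. Pou5f1 measured 0.089, 0, 0.182 and 0.160 FPKM with SALL4WT and 0.117, 0, 0.639 and 2.58 FPKM with SALL4delN12, with a difference of 1.63 at day 11. At day 1 no factor passed 2-fold, which is not set beside a share of all genes and is not read as a difference from them. At day 5, 2 were higher with SALL4delN12 (Tbx3 and Tfcp2l1, beside 4.67% of all genes), at day 9 1 was (Tbx3, 6.09%) and at day 11 2 were (Tbx3 and Pou5f1, 6.55%). Sox2 was the 1 factor lower with SALL4delN12 at day 9 (5.75% of all genes) and at day 11 (6.58%).

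**Figure D3:**
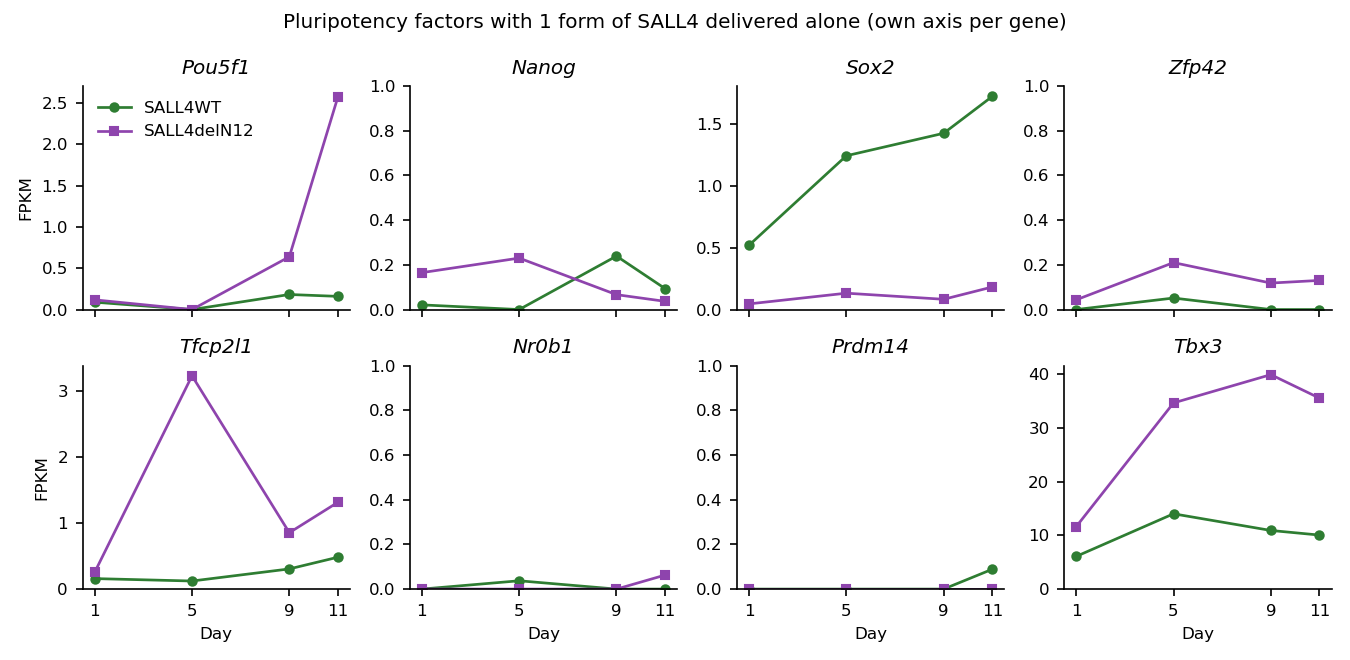
FPKM of each factor (vertical axis, own range for each gene) against day with SALL4WT or SALL4delN12 alone, 1 library a point. Tbx3 is above with SALL4delN12 and Sox2 above with SALL4WT at all 4 days, and Nanog, Zfp42, Nr0b1 and Prdm14 stay under 0.25 FPKM.

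Single-cell counts of unique molecules (UMIs) placed the factors in cell types at day 7. There were 8685 cells without BMP4 (median 12738 UMIs) and 11335 with BMP4 (median 21205), and the samples shared 2 cell barcodes. The authors' labels for cells were used: without BMP4, 1825 cells (21.0%) were labelled Pluripotent, 6211 (71.5%) Intermediate, 507 Endothelial and 142 ParE, and with BMP4, 7125 (62.9%) were Intermediate, 2372 (20.9%) ParE, 1453 Endothelial and 385 Placenta-like. Those labels were made from these cells' expression, the 8 factors included, so levels by label are descriptions. Pluripotent-labelled cells had the highest level of 6 of 6 pluripotency markers and ParE-labelled cells with BMP4 of 6 of 6 primitive-endoderm markers. The 142 ParE-labelled cells without BMP4 had 919 CPM (UMIs scaled to the total of the group of cells) summed over the primitive-endoderm list and 872 CPM over the pluripotency list, of which 809 CPM was Dppa5a alone. The fibroblast list was highest in BMP4+ Intermediate cells, at 1034 CPM summed against 169.7 in BMP4- Intermediate cells. Intervals on CPM (exact Poisson), on shares of cells (Clopper-Pearson) and on ratios are 95% and cover counting error only. Shares of cells were computed after drawing 4000 UMIs from each cell.

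Pou5f1 stood at 899 CPM (889 to 910.1) in Pluripotent cells, and a UMI of it was found in 93.8% of them (99.7% without thinning). Nanog stood at 99.9 CPM (96.3 to 103.6) there, in 30.4% of cells (67.1% unthinned). Sox2 was at 217 CPM in 55.8% of cells (90.8% unthinned) and Zfp42 at 231 CPM in 54.6% (86.8%). The smaller shares of Tfcp2l1 (49.4 CPM, 17.2%, unthinned 49.6%), Nr0b1 (27.3 CPM, 9.92%, unthinned 29.0%), Tbx3 (26.7 CPM, 9.64%, unthinned 29.6%) and Prdm14 (3.47 CPM, 1.10%, unthinned 5.37%) went with their lower counts. At this depth a cell without a UMI of these 4 genes cannot be called negative.

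Of the UMIs of each gene in the BMP4- sample, Pluripotent cells, which held 24.1% of all UMIs, carried 91.8% for Zfp42, 85.1% for Prdm14, 84.4% for Nanog, 83.5% for Pou5f1, 82.6% for Nr0b1 and 78.1% for Tfcp2l1. They carried 49.0% for Sox2 and 31.7% for Tbx3. By this share, 6 factors had most of their UMIs in Pluripotent cells and 2 did not. Pou5f1 was also at 196 CPM (176 to 217) in the 142 ParE-labelled cells, 21.8% of the Pluripotent level, and was found in 41.5% of them after thinning.

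Intermediate cells without BMP4 had 7 of the 8 factors at least 2-fold below the Pluripotent cells on the log2(CPM + 1) scale, beside 10.1% of all genes, the exception being Tbx3. As a share of the Pluripotent level, Zfp42 was at 2.63%, Nanog at 5.73%, Prdm14 at 5.89%, Pou5f1 at 6.05%, Nr0b1 at 6.39% and Tfcp2l1 at 7.62%. The 6 pluripotency markers, none of them a factor described here, lay between 3.01% and 7.56% (median 4.46%) in the same comparison. Zfp42 thus lay just below that range and Tfcp2l1 just above it. Sox2 at 35.6% (34.4 to 36.9) and Tbx3 at 60.1% (55.0 to 65.7) lay well above it. Of the 19 network genes followed above, 4 also lay well above it: Klf4 at 23.5%, Klf5 at 23.8%, Lin28a at 66.2% and Mycn at 125.4%.

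Free RNA in droplets gives UMIs in cells that do not express a gene, so the Intermediate cells (median 11892 UMIs) were set beside the Endothelial cells of the same sample (median 15083 UMIs), a label outside the pluripotent state. Leading genes of a label are the 10 with the highest fold over the other cells of its own sample. Without BMP4 those of this label included the blood genes Hbb-bh1, Hba-a1, Hba-x, Gfi1b and Spi1 beside the vascular genes Gja4 and Kdr. With BMP4 they included Cd34, Gja4, Kdr, Cldn5, Emcn and Cdh5 beside Spi1, Lyz2 and Cd209g. Gja4, Kdr and Spi1 were thus in both lists. The endothelial marker list summed to 263 CPM without and 596 CPM with BMP4. The other cells differ between the samples, and their part in the differences between the lists was not tested. After thinning, a UMI of Nanog was found in 2.21% of Intermediate and 2.76% of Endothelial cells, Zfp42 in 2.09% and 3.16%, and Nr0b1 in 0.660% and 1.18%. These 3 shares are at or below those of the Endothelial cells and are not read as expression. In the BMP4+ sample, which has no Pluripotent-labelled cells, Nr0b1 was at 0.863 CPM in Intermediate and 0.029 in Endothelial cells, and Zfp42 at 1.91 and 1.95 CPM, and the part of free RNA in the shares of these 2 genes was not tested. Tfcp2l1 was found in 1.43% of Intermediate and 2.37% of Endothelial cells, but its level was as high in the Endothelial cells of the BMP4+ sample (7.73 CPM), so they are no blank for it. Pou5f1 was found in 17.2% (16.2 to 18.1) of Intermediate and 13.0% (10.2 to 16.3) of Endothelial cells, and its level was 54.4 CPM (52.8 to 56.0) and 44.7 CPM (40.3 to 49.4). Sox2 was found in 22.6% of Intermediate and 7.89% of Endothelial cells, at 77.1 and 28.7 CPM, and was above the Endothelial cells by either measure.

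BMP4+ cells of every label had little of the central factors. Over all cells of a sample, Pou5f1 was 82.7-fold lower with BMP4 (77.2 to 88.6), Nanog 197-fold (144 to 277), Zfp42 22.9-fold, Sox2 13.4-fold and Nr0b1 12.9-fold. Tfcp2l1 was 2.26-fold lower (2.12 to 2.42). Prdm14 had 121 UMIs without and 3 with BMP4, a ratio of 88.2 with an interval of 29.5 to 434. Tbx3 was 7.64-fold higher with BMP4 (7.34 to 7.96). The single cells thus gave the same direction as the bulk libraries at day 7 for all 8 factors.

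Within Intermediate cells, 4 of the 8 factors were at least 2-fold lower with BMP4 on the log2(CPM + 1) scale, beside 5.46% of all genes: Pou5f1 (54.4 and 2.26 CPM), Nanog (5.72 and 0.180), Sox2 (77.1 and 12.4) and Zfp42 (6.08 and 1.91). The BMP4- shares of Nanog and Zfp42 were no higher than in Endothelial cells and the Pou5f1 level was close to theirs, in a sample with 1825 Pluripotent cells against 0 so labelled with BMP4, and the part of free RNA in these 3 ratios was not tested. The Sox2 ratio was 6.24-fold (5.93 to 6.56). The leading genes of the Intermediate label also differed between the samples. They included Tagln, Acta2 and Car3 without BMP4, and S100a9, Slpi and Ccl8 with it. Each list was ranked against the other cells of its own sample, which carry different labels with BMP4. The lists alone therefore do not show that the Intermediate cells differ. Their summed fibroblast list did differ (169.7 CPM without and 1034 CPM with BMP4), so cells under this label are not taken as alike. Tbx3 was 8.88-fold higher with BMP4 in Intermediate cells, at 16.1 CPM without and 143 CPM with it, and was found in 5.97% and 37.6% of the thinned cells. The summed fibroblast list moved the same way in these cells, from 169.7 to 1034 CPM, and its part in the Tbx3 difference was not tested.

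Tbx3 was high under every BMP4+ label: 284 CPM in Placenta-like cells (63.9% of thinned cells), 173 CPM in ParE cells (47.3%), 143 CPM in Intermediate cells and 137 CPM in Endothelial cells (36.7%). All 4 levels were above the 26.7 CPM of Pluripotent cells and the 65.6 CPM of ParE cells without BMP4. Tfcp2l1 had its own pattern. It stood at 15.3 CPM (14.4 to 16.4) in BMP4+ ParE cells, 12.2 in Placenta-like, 7.73 in Endothelial and 2.83 in Intermediate cells, and the ParE cells carried 52.0% of its UMIs. Between BMP4+ and BMP4- cells the Tfcp2l1 ratio was 0.853 (0.606 to 1.24) in ParE cells and 1.00 (0.761 to 1.33) in Endothelial cells, both intervals including 1. The Endothelial cells are not taken as alike, since their endothelial marker list summed to 596 CPM with and 263 CPM without BMP4. Sox2 in BMP4+ cells was held almost wholly by one label: Intermediate cells carried 93.1% of its UMIs and ParE cells 3.93%, at 12.4 and 1.37 CPM.

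**Figure D4:**
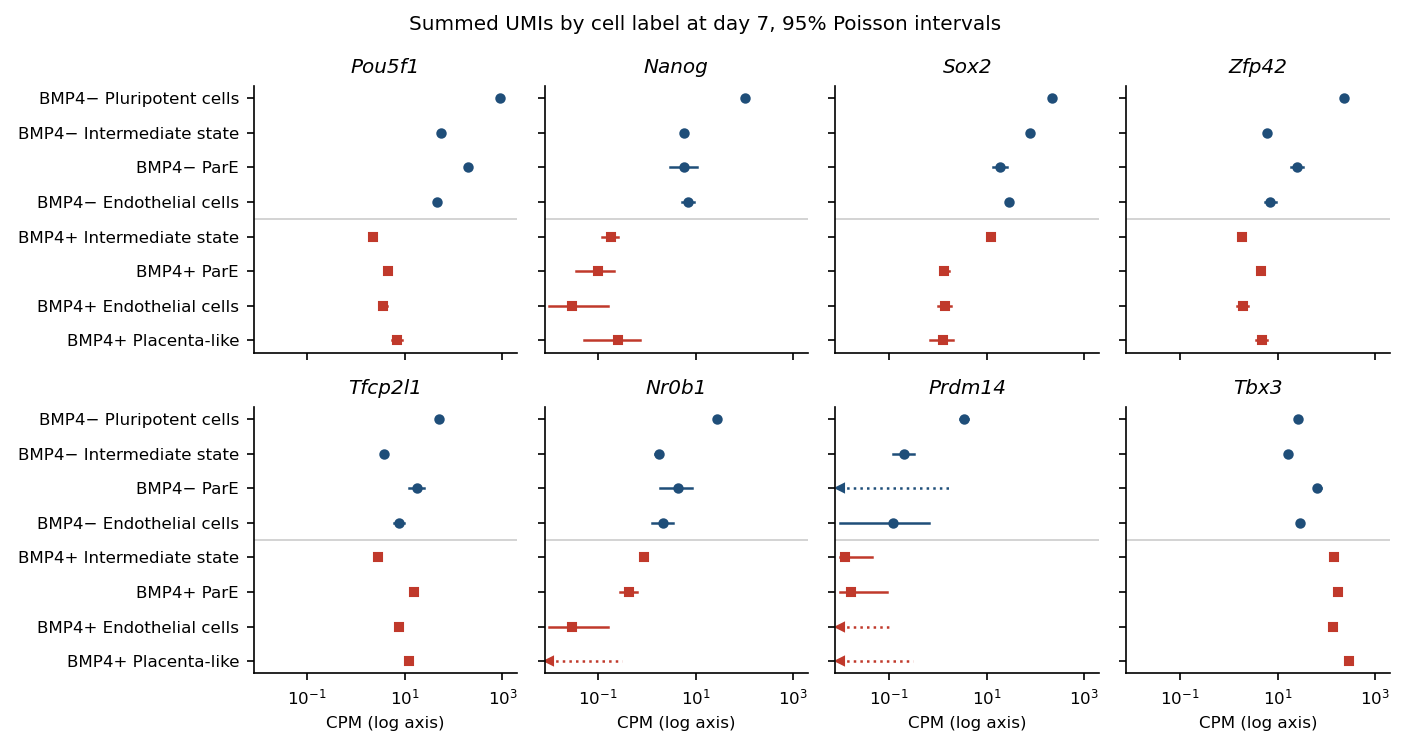
Level of each factor (CPM, log scale as labelled) by authors' cell label, without and with BMP4, summed over the cells of a label, with 95% Poisson intervals; an arrow with a dotted line marks 0 UMIs and runs to the upper bound of the interval. Pou5f1, Nanog and Zfp42 are highest in Pluripotent cells, Tbx3 is highest in BMP4+ Placenta-like cells, and Sox2 is at 77.1 CPM in BMP4- Intermediate cells.

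How many of the 8 factors a single cell carried was counted on the thinned cells. Pluripotent cells carried a median of 3 factors, 56.2% (53.9 to 58.5) carried at least 3 and 24.0% at least 4, and the highest was 7, in 1 cell. BMP4- Intermediate cells carried 0 factors in 57.7% of cells and at least 3 in 0.934%. BMP4+ Intermediate cells carried at least 3 in 0.126%, which is 9 cells. Among the 2078 BMP4- Intermediate cells with exactly 1 factor, that factor was Sox2 in 48.3%, Pou5f1 in 31.6%, Tbx3 in 11.02%, Zfp42 in 3.32% and Nanog in 2.94%. Among the 225 Pluripotent cells with exactly 1, it was Pou5f1 in 82.7%. In the Endothelial cells of that sample, 144 cells had exactly 1 factor, which was Pou5f1 in 34.7%, Tbx3 in 26.4% and Sox2 in 20.8%. With BMP4, the lone factor was Tbx3 in 4259 of 4633 cells. Of the 492 Intermediate cells with exactly 2 factors, a UMI of Pou5f1 was found in 72.6%, of Sox2 in 72.0% and of Tbx3 in 24.0%, beside 59.1%, 36.4% and 31.8% of the 22 such Endothelial cells.

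Cells with 4 or more factors numbered 446 without BMP4, of which 438 were labelled Pluripotent and 4 Intermediate. With BMP4 there were 8 of 11335, 6 of them labelled Intermediate. These 8 cells had 558 CPM of Pou5f1 against 2.73 CPM in the other BMP4+ cells and 2826 CPM of Dppa5a against 4.86. Of the other pluripotency markers, Tdh stood at 518 against 81.3 CPM, Utf1 at 171 against 0.387, Dppa4 at 70.4 against 2.24, Fgf4 at 30.2 against 0.059 and Dppa3, found in 2 of the 8 cells with 3 UMIs, at 15.1 against 0.312. Dppa3 was at 261 CPM in the 446 cells without BMP4. The 8 cells held no UMI of the fibroblast collagen Col1a1. They held 13.1% of the Pou5f1 UMIs and 30.04% of the Dppa5a UMIs of the whole BMP4+ sample. Selecting them by the 8 factors fixes the Pou5f1 value, while the selection did not use the 6 markers, Col1a1, Sox17, Gata4 or Kdr. Of the primitive-endoderm markers, Sox17 was found in 2 of the 8 cells (30.2 against 68.9 CPM in the other BMP4+ cells). Gata4 was found in 1 (5.03 against 19.1 CPM), and the endothelial marker Kdr in 0. A few cells carrying many of the factors were thus present with BMP4, under a label other than Pluripotent.

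Chromatin at the 8 genes was read from peak lists of the SALL4-alone cultures and, for ATAC-seq, of MEFs; no JGES culture has such a list here. A gene was counted when a peak overlapped the 2 kb to either side of its start, and scores are those of the peak caller, from 50 upward. ATAC-seq marks open chromatin. Sox2, Tfcp2l1 and Tbx3 had an ATAC-seq peak in all 9 libraries, and Nr0b1 and Prdm14 in none. The best score ran from 722 to 3100 at Tbx3, from 94.95 to 471 at Tfcp2l1 and from 67.6 to 366 at Sox2, with the MEF library the highest for Sox2 and Tbx3. Zfp42 had a peak in SALL4delN12 day 11 (68.4) and in no other library. Pou5f1 had one at day 5 with SALL4WT (161) and with SALL4delN12 (54.4), at day 9 with SALL4WT (58.2) and at day 11 with SALL4delN12 (127). None was called there in the other 5 libraries.

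The count of factors with an ATAC-seq peak was 4 of 8 in MEFs, beside 66.2% of 21951 protein-coding starts. With SALL4WT it was 3 at day 1 (60% of starts), 4 at day 5 (64.4%), 4 at day 9 (63.7%) and 3 at day 11 (64%). The SALL4delN12 libraries gave 3 factors on day 1 (57.9%), 4 on day 5 (59.8%), 3 on day 9 (61.4%) and 5 on day 11 (61.9%). These shares of the 8 factors, 3 to 5, were at or below the background in each library but SALL4delN12 at day 11, where 5 of 8 was near it.

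CUT&Tag at day 6 mapped SALL4 itself and H3K27ac, a histone mark of active regulatory DNA. SALL4 peaks lay within 2 kb of 4 factors with SALL4WT, beside 51.5% of all starts: Tbx3 (score 351), Pou5f1 (111), Sox2 (105.0) and Tfcp2l1 (73.2). With SALL4delN12 there was 1, Tbx3 (292), beside 38.5% of starts. H3K27ac peaks lay at 2 factors with SALL4WT, Pou5f1 (148.8) and Tbx3 (105.5), beside 47.5% of starts, and at 1 with SALL4delN12, Tfcp2l1 (144), beside 56.7%. The Pou5f1 peak of H3K27ac was centred 3.25 kb before the start, and 1 factor was counted with SALL4WT within 1 kb or with at least 0.5 of the peak inside. The Pou5f1 peak of SALL4 is long and lies mostly outside the window: 3 factors were counted with SALL4WT when at least 0.5 of a peak had to lie inside, and 3 as well at scores of at least 100, where Tfcp2l1 dropped out. Tbx3 was the one factor with a SALL4 peak at its start in both forms. The RNA of Tbx3 and of Tfcp2l1 was higher with SALL4delN12 at all 4 days, and the H3K27ac peak was called with SALL4WT only at Tbx3 and with SALL4delN12 only at Tfcp2l1. The peak counts of the lists differ (19841 and 45599 for H3K27ac with SALL4WT and SALL4delN12), and the lists do not measure the height of a peak that was not called.

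**Figure D5:**
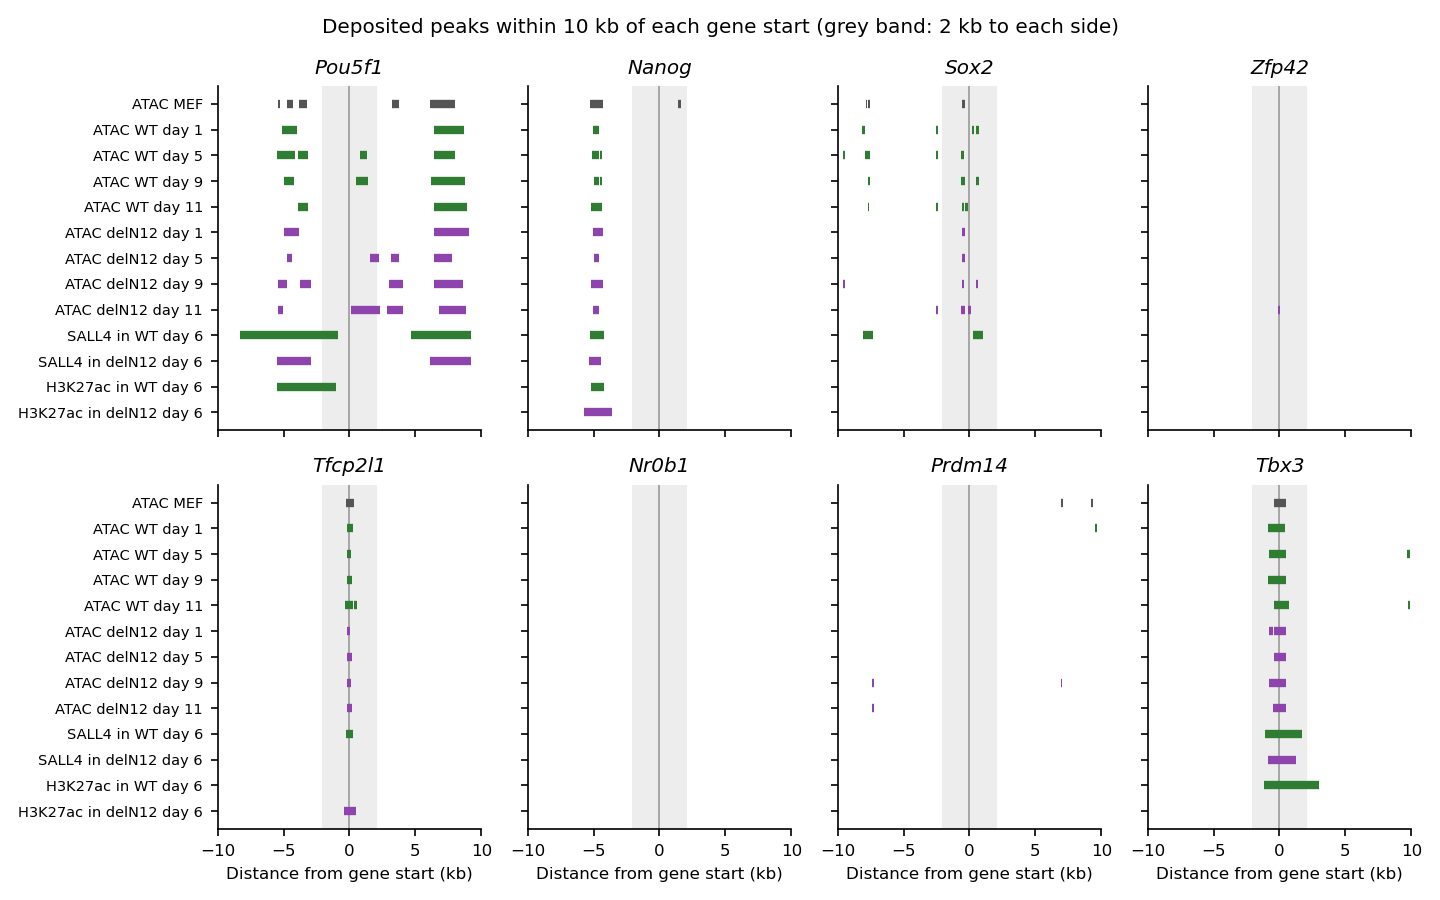
Peaks near the 8 genes by library (rows), each bar spanning a called peak by its distance from the annotated start in kilobases (horizontal axis), with the 2 kb to either side in grey. The peaks about 4.8 kb before the Nanog start are present in all 13 lists, and Nr0b1 has no peak within 10 kb.

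Nanog had an ATAC-seq peak within 2 kb of its start in MEFs alone (79.2) and no SALL4 or H3K27ac peak there, but had peaks of each kind farther upstream. All 9 ATAC-seq libraries, MEFs included, had a peak about 4.8 kb before the start, with best scores from 311 to 1673 and the highest in MEFs. SALL4 peaks overlapped it with SALL4WT (chr6:122702206-122703315, score 244) and SALL4delN12 (137), and H3K27ac peaks with SALL4WT (225) and SALL4delN12 (327), in cultures where Nanog RNA was at most 0.239 FPKM. The 300 bases at the centre of the SALL4WT peak are printed because peaks of all 13 lists overlap this stretch, from GRCm38.p6 on the plus strand.
Nanog upstream peak centre, chr6:122702611-122702910: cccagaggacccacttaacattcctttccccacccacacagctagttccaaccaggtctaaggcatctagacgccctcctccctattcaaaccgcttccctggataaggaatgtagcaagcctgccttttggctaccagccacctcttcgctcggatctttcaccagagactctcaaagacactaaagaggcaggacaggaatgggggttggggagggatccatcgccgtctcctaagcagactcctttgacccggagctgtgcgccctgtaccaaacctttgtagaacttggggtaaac

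None of the 5 motifs searched in the promoters was in this stretch. Over the centres of the 69442 SALL4WT peaks of at least 300 bases, the AP-1 motif TGACTCA was in 30.2%, the SOX motif in 15.9%, the ESRRB motif in 6.24%, the octamer in 4.38% and AATATT in 4.15%. Sox2 had a peak of SALL4 about 7.7 kb before its start with SALL4WT alone (chr3:34642352-34643082, score 68.3), and its centre too held none of the 5 motifs. ATAC-seq peaks at that place were called in MEFs and in SALL4WT at days 1, 5, 9 and 11. Pou5f1 had broad SALL4 peaks on both sides of the gene: the one counted above was 7425 bases long, centred before the start, with SALL4WT (score 111), and with SALL4delN12 one of 2642 bases (55.6) ended short of the 2 kb window. Farther along, SALL4 peaks were centred 6.94 kb after the start with SALL4WT (296) and 7.64 kb after it with SALL4delN12 (133).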

How the data were processed

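Bulk RNA-seq, single-cell RNA-seq, ATAC-seq and CUT&Tag were measured in 38 samples, 1 sample per condition. FPKM values per gene were deposited by the authors, who used Trim Galore 0.6.4, HISAT2 2.2.1 and StringTie 2.2.1 per the submitters' processing notes. Single-cell UMI counts with cell labels were deposited by the authors, from STAR and Scanpy. Peak lists with a score per peak were deposited by the authors, from Bowtie2 2.4.5, SAMtools 1.16.1 and MACS 1.4.2. The ATAC-seq peaks were called per library and the CUT&Tag peaks on merged replicates, which the lists do not keep apart. Of the single-cell counts, 10749 columns (cells of other work) were not used. Doublets were not called here.

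The 8 factors and the gene lists were chosen with earlier results of these data known. All 8 are named; of other genes, the 3 most correlated with each factor over the 17 libraries (at least 5 FPKM in a library) and, of the 19 network genes, the 2 with the largest fall and the 2 with the smallest change with BMP4 at day 7. Some items are not reported here, and they were left out of the lists and counts of named genes. Differences used a pseudocount of 1 FPKM, and genes with at least 1 FPKM in either library formed the background. Depth was estimated from single-transcript genes, whose low values were whole multiples of 1 read (within 0.05, values of 1 to 6 reads) in 73.5% to 80.6% of cases; mates are not independent, so no interval was built on it. UMIs were summed per label and each cell was thinned to 4000 UMIs (lowest cell 4163). Peaks were matched to GENCODE vM21 starts on mm10. Alternatives were a pseudocount of 0.1, scaling to the median ratio, no filter, other activation limits, unthinned cells, leaving out the 5% deepest cells, and other windows and scores. Scripts ran under python 3.11.15, numpy 2.4.6, scipy 1.17.1, pandas 2.3.3 and matplotlib 3.10.9, and were tested on simulated data.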

Additional observations from a re-analysis of the deposited data

Results flagged for a closer look

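The change with BMP4 at day 7 had opposite signs in JGES and in cultures that received Oct4 for several factors, each from 1 library per condition, and these differences were not tested. In JGEO the difference on the log2(FPKM + 1) scale was 0.03 for Pou5f1, against -5.02 in JGES, but its sign turned with the libraries scaled, to -0.0038. It was 0.23 for Nanog (-4.43 in JGES), 0.79 for Zfp42 (-3.42), 0.88 for Tfcp2l1 (-2.84), 0.31 for Nr0b1 (-3.73) and 0.52 for Prdm14 (-2.32). In JGESO it was 0.28 for Pou5f1 (-5.02 in JGES) and 0.12 for Tfcp2l1 (-2.84). Oct4 is delivered in JGEO and JGESO, JGEO also lacks Sall4, and the JGES libraries are shallower than the others. The part of each of these in the differences was not tested.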

How the results depend on the processing

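No paired analysis was run, because each condition had 1 library or, for CUT&Tag, 1 list from merged replicates. The days of a time course are different conditions and were not treated as replicates. Scaling the libraries, dropping the filter on low values and using the other table's day 7 values left every single-factor difference on its side of 2-fold (88, 88 and 8 differences) and in its direction, except that Pou5f1 with BMP4 in JGEO went from 0.03 to -0.0038 with scaling. With a pseudocount of 0.1 no difference reversed, but 15 more of the 88 passed 2-fold, all under 1.5 FPKM in both libraries. Against day 0, Prdm14 at day 3 (2.32) and Nr0b1 at day 7 with BMP4 (2.29) also passed, which makes 8 and 7 factors higher. The counts past 2-fold then became, with BMP4 in JGES at day 1, 3 factors higher and 2 lower, with Prdm14 the added call at day 3 (-2.32), and SALL4delN12 against SALL4WT gave 1 higher and 1 lower at day 1, 4 higher and 1 lower at day 5, 4 higher and 2 lower at day 9, and 4 higher at day 11. The order of activation depends on the limit. With 5 FPKM, 3 factors were active by day 1 and Prdm14 has no day. With 0.5 FPKM, Pou5f1 was active from day 0 (0.931 FPKM) and Tfcp2l1 from day 1 (0.524 FPKM). With 0.5 of the highest level, 0 factors were active by day 0, 1 by day 1 and 3 by day 3. Without thinning, the share of cells with at least 3 factors was 94.2% in Pluripotent cells, 9.81% in BMP4- Intermediate cells and 2.29% in BMP4+ Intermediate cells, and 53 of 64 shares of cells with a UMI moved. Leaving out the deepest cells moved 5 of 64 CPM values. For peaks, H3K27ac with SALL4WT counted 1 factor within 1 kb and 1 with at least 0.5 of the peak inside the window, and SALL4 with SALL4WT counted 3 with at least 0.5 inside and 3 at scores of at least 100. Within 10 kb, H3K27ac with SALL4delN12 counted 2, SALL4 with SALL4delN12 counted 3, and 5 factors had ATAC-seq peaks in all 9 libraries. Within 2 kb at scores of at least 100, 1 factor had. The shallow JGES libraries limit every value near 0.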
